A study of Mus musculus with 6 samples.

Results

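The kinases Clk1 and Clk4 and 8 further genes tied to splicing, Leng8, Srsf5, Ddx5, Tra2a, Rbm39, Luc7l, Pnisr and Ccnl2, were followed across the prefrontal cortex (PFC) of tau-transgenic and control mice. They were taken by their symbols from the deposited count files, as 10 of the 54429 gene names listed there, and all 10 were among the 20409 genes with enough counts to be tested. The list names genes known for retained introns or splicing regulation and was drawn up with the fold changes between these same groups in view, so that it was in part chosen by those values, and its values are given as a description and without a test. The study asked whether a short treatment with an inhibitor of the histone methyltransferases EHMT1 and EHMT2 changes the transcriptome of a tauopathy mouse. RNA of bulk PFC lysate, depleted of ribosomal RNA, was sequenced from 2 mice in each of 3 groups, all 6 months old. The WT group was made up of (C57BL/6 x C3H) mice given vehicle, which was saline with DMSO. The Tau group carried the PS19(P301S) transgene, a mutant human tau of the 1N4R isoform on a B6C3H/F1 background, and also received vehicle. The UNC group carried the same transgene and was injected with UNC0642, the EHMT1 and EHMT2 inhibitor, daily for 3 days at a dose of 1 mg/kg. The PS19 transgene is driven by the mouse prion protein promoter. WT mice given UNC0642 were not analysed here. In bulk tissue, fewer cells that express a gene and less of its RNA per cell cannot be told apart.

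A detained intron is an intron that stays in an otherwise finished, polyadenylated transcript, which is then held in the nucleus until the intron is removed or the RNA is degraded. Many genes that encode splicing factors carry such introns. SR proteins, which have stretches rich in serine and arginine, bind RNA and help to define exons, and the CDC-like kinases (Clk) phosphorylate these stretches. Clk1 and Clk4 are themselves known for transcripts that keep the introns around exon 4 or leave this exon out, and Clk activity is known to respond to temperature and heat shock.

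The mouse gene models (GENCODE M21, build GRCm38) showed what the counts of these genes can contain. A transcript of the class "retained intron" was annotated for 9 of the 10 genes, all but Pnisr, compared with 104 of 137 other splicing genes (75.9%) and 8180 of 14697 tested protein-coding genes (55.7%). Clk1, Clk4 and Rbm39 each had 7 such transcripts, a number reached by 8.03% of the other splicing genes and 2.12% of the protein-coding genes. A transcript marked for nonsense-mediated decay, the pathway that destroys RNAs with an early stop codon, was annotated for 9 of the 10 genes, all but Leng8, against 48.9% of the other splicing genes and 27% of protein-coding genes. The members were listed as genes known for retained introns or splicing regulation. Their high shares therefore follow in part from that choice and are not a result about them. In 7 of the genes, 17 introns of the reference transcript lay inside an annotated retained-intron transcript. They were 81 to 2341 bases long with a median of 373 bases, and all 17 lay between coding exons. The deposited values are 1 count per gene, so reads inside these introns were not measured separately, and a change in total count says nothing of how much of the RNA was spliced.

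The exon 4 region of Clk1 and Clk4 is shown because it is the stretch both kinases share and both can keep unspliced. In Clk1, on the minus strand of chromosome 1, exon 4 (chr1:58420121-58420211) stood between intron 3 (chr1:58420212-58421082, 871 bases) and intron 4 (chr1:58419734-58420120, 387 bases). In Clk4, on the plus strand of chromosome 11, exon 4 (chr11:51273078-51273168) stood between intron 3 (chr11:51272023-51273077, 1055 bases) and intron 4 (chr11:51273169-51273559, 391 bases). All 4 of these introns lay within annotated retained-intron transcripts. Exon 4 was 91 bases long in both genes, a length that is not a multiple of 3, and 3 other transcripts of each gene leave it out. The 2 exons were identical at 85 bases and differed at 6 (93.4% identity), and the differing bases are in capitals:
Clk1 exon 4: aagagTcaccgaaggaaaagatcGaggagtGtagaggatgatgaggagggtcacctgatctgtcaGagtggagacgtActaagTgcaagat
Clk4 exon 4: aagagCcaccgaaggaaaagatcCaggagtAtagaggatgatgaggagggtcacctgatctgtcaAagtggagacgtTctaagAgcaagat
Whether reads of this exon were divided correctly between the 2 genes cannot be read from counts per gene.

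The 5′ splice sites of the same introns are shown with 20 exon bases, the first 6 intron bases in capitals and 14 further intron bases:
Clk1 intron 3: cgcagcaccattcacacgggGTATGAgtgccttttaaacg
Clk4 intron 3: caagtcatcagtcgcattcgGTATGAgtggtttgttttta
Clk1 intron 4: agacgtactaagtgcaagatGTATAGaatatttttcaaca
Clk4 intron 4: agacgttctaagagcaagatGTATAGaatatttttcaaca
Leng8 intron 11: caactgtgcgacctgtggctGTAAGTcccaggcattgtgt
The first 20 bases of intron 4 were identical in the 2 kinases (20 of 20), and those of intron 3 matched at 12 of 20. The start GTATAG was found in 11 of the 7025 annotated retained introns of 3687 genes (0.157%), and GTATGA in 67 (0.954%). For comparison, GTAAGT opened 9.74% and GTGAGT 15.5% of the same introns. Leng8 intron 11 (chr7:4144339-4144711, plus strand, 373 bases) is given because Leng8 had the largest difference between groups, and it opened with GTAAGT, as did 5 of the 17 introns. All sequences were read from GRCm38 at the GENCODE M21 exon borders, and a match of letters is a description of the sequence only.

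**Figure D1:**
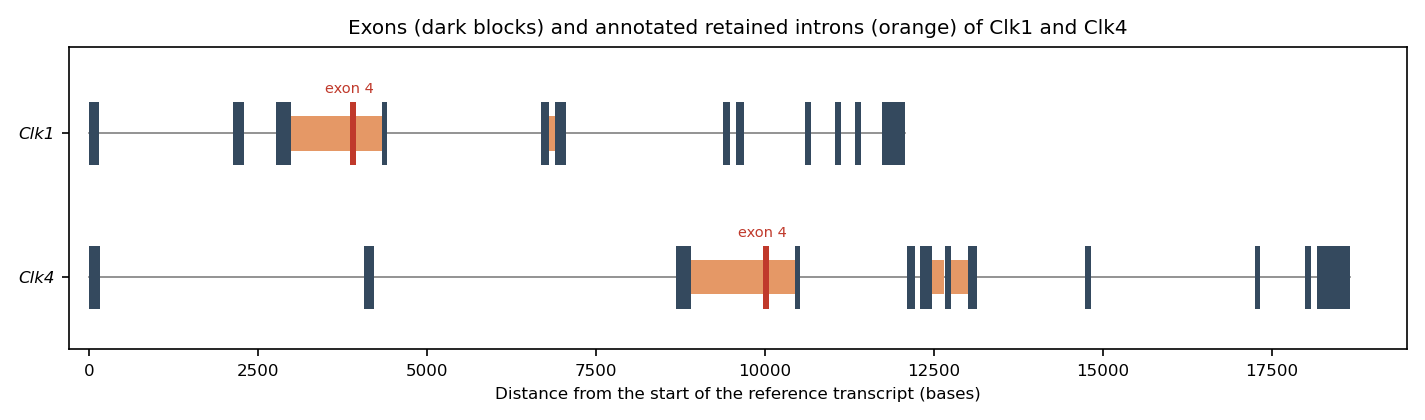
Exons (dark blocks, exon 4 in red) and introns that lie within annotated retained-intron transcripts (orange) of the reference transcripts of Clk1 and Clk4, drawn to scale by distance in bases from the transcript start. Both genes have retained introns on either side of the 91-base exon 4, and a further group downstream, 1 intron in Clk1 and 2 in Clk4.

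Some features of the 6 libraries bear on every result below. The counts per library summed to 17005664 to 28972176, the members had 629 to 18028 counts per library, and the biological coefficient of variation over all genes was 12.3%. Xist, the RNA that coats the silenced X chromosome in female cells, had 4104 to 8107 counts in both Tau libraries and WT replicate 2 and 2 to 5 in the other 3 libraries, so both Tau libraries had the female pattern and both UNC libraries the male pattern. Sex and UNC0642 treatment therefore cannot be told apart in the comparison of UNC with Tau. Without the library labelled WT replicate 1, only WT replicate 2, with the female pattern, is left in the WT group. The UNC to WT values given without that library therefore cannot be told apart from a difference of sex either. Prnp, whose sequences the transgene shares, stood at 1652 CPM (counts per gene scaled to a common library total) in the library labelled WT replicate 1, which was within the 1470 to 1694 CPM of the 4 transgenic libraries, and at 873 CPM in WT replicate 2. This level goes against the label. Mapt, the mouse tau gene, to which reads of the human tau transgene may in part be assigned, was at 576 CPM in the library labelled WT replicate 1, at 449 CPM in WT replicate 2 and at 571 to 614 CPM in the 4 libraries labelled Tau or UNC. Most fold changes of the members that involve WT, and some of the counts of called genes, are therefore also given without the library labelled WT replicate 1. The shares of all genes called for UNC to WT and the comparisons of ranges are given with that library only. In a fit with a term for the Xist pattern, the term is set by the 2 WT libraries alone, since they are the only group with both patterns. The fit then compares both Tau libraries with WT replicate 2, and both UNC libraries with the library labelled WT replicate 1. It adds the difference of these 2 WT mice to UNC against Tau. The WT side of each comparison with WT thus rests on 1 mouse, and the Xist term on 1 mouse per pattern. The oligodendrocyte markers Mbp, Mobp, Mog and Cnp were each highest in Tau replicate 2, with Mbp at 2001 CPM there and at 535 to 1065 CPM in the other 5 libraries. The endothelial markers Cldn5, Pecam1, Flt1 and Tek summed to 96.8 to 109 CPM in the WT libraries, 72.2 to 74.3 CPM in Tau and 78.9 to 94.1 CPM in UNC, and 3 of the 4 were called lower in Tau than in WT (2 without the library labelled WT replicate 1). The 5 microglial markers summed to 194 to 247 CPM, and 2 were called higher in Tau than in WT (1 without that library). The 6 neuronal markers, which include Snap25, Slc17a7 and Gad1, were present in all 6 libraries and summed to 5457 to 6407 CPM. Of these, Syt1 was called higher in UNC than in Tau (0.55 ± 0.13, log2 fold change ± SE) and than in WT (0.38 ± 0.13), while 4 of the 6 were lower in each comparison. Gad1 was at 449 CPM in the library labelled WT replicate 1 and at 266 CPM in WT replicate 2.

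Compared by CPM per kilobase of exon, the 10 genes covered a wide range of levels. The length used joined the exons of all annotated transcripts of a gene, retained-intron transcripts included. It was 8132 bases for Clk1 and went from 3988 (Srsf5) to 10187 bases (Pnisr). The annotation used for counting is not known, and other lengths were not tried. The levels, their order and the percentages of genes at a lower level therefore depend on this choice of length. Ddx5, a DEAD-box RNA helicase that acts in transcription and splicing, was the most abundant, with a median of 113.2 CPM per kb and a higher level than 98.7% of tested genes, and it did not overlap any other member. Rbm39, a U2AF-related splicing cofactor, followed at a median of 37.1 CPM per kb, and Srsf5, an SR protein, at 34.9 CPM per kb, and these 2 overlapped each other. Below them, without overlap to Srsf5, came Luc7l, a homologue of a U1 snRNP protein that helps to select 5′ splice sites, at 20.6 CPM per kb. Pnisr, an SR-rich protein of nuclear speckles, stood at 18.2 CPM per kb, Clk1 at 14.9 CPM per kb, and Ccnl2, the cyclin L2 partner of CDK11 kinases, at 11.2 CPM per kb. Clk4 stood at 10.3 CPM per kb, Tra2a, an SR-like activator of exon inclusion, at 10.1 CPM per kb, and Leng8, a nuclear protein with a domain shared by mRNA export factors, at 6.77 CPM per kb. From Luc7l down, each gene overlapped the next over the 6 libraries, so the order of neighbours is not separated from the spread. Genes further apart could be separate. With this length, Luc7l (18.8 to 21.7 CPM per kb) lay wholly above Clk1 (11.2 to 15.9 CPM per kb), and Clk1 wholly above Leng8 (5.63 to 10.55 CPM per kb). Even Leng8 was above 67.2% of tested genes by this measure.

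Leng8 showed the largest difference between groups. Its level was 67.5 and 53.5 CPM in the library labelled WT replicate 1 and in WT replicate 2, 37.9 and 36.0 CPM in Tau replicates 1 and 2, and 41.9 and 44.8 CPM in UNC replicates 1 and 2. The 3 groups did not overlap, with WT highest, Tau lowest and UNC slightly above Tau. The Tau to WT difference was -0.71 ± 0.12 (log2 fold change ± SE), and the difference of UNC to WT was -0.48 ± 0.12. Without the library labelled WT replicate 1 these differences were -0.54 and -0.31, and with 1 library left out in turn the Tau to WT difference ranged from -0.86 to -0.54. The smaller difference of UNC to Tau was 0.23 ± 0.12, and -0.11 in the fit with the Xist term. The endothelial marker Cldn5 had the same order of groups, at 26.1 and 18.5 CPM in WT, 10.48 and 10.31 CPM in Tau and 13.9 and 16.0 CPM in UNC. Group means of the endothelial markers Pecam1, Flt1 and Tek had this order too, but their groups overlapped, Tau with WT for Pecam1, UNC with WT for Flt1 and UNC with Tau for Tek. The part of endothelial content in the Leng8 values was not tested. The annotated span of Leng9, a neighbour on the opposite strand, overlaps that of Leng8 by 263 bases, and Leng9 had 85 to 191 counts.

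The 2 kinases moved less. Clk1 had 119.4 and 120.7 CPM in WT, 91.2 and 121.5 CPM in Tau, and 121.3 and 129.0 CPM in UNC. Its Tau replicate 1 was the lowest of the 6 libraries, whereas Tau replicate 2 was above both WT libraries, and the Tau range overlapped both other groups. The log2 fold change of Clk1 was -0.18 ± 0.12 for Tau to WT and 0.24 ± 0.12 for UNC to Tau. Clk4 had 56.3 and 61.0 CPM in WT, 49.6 and 60.6 CPM in Tau, and 58.9 and 64.8 CPM in UNC. Tau replicate 1 was again the lowest, Tau replicate 2 was close to the higher WT library, and the groups overlapped in every comparison. The log2 fold changes of Clk4 were -0.09 ± 0.11 for Tau to WT and 0.17 ± 0.11 for UNC to Tau, and UNC differed from WT by 0.06 for Clk1 and 0.08 for Clk4. Without the library labelled WT replicate 1, Tau to WT was -0.19 for Clk1 and -0.16 for Clk4, and UNC to WT was 0.05 and 0.02.

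Among the RNA-binding splicing factors, Srsf5 had 160.3 and 147.1 CPM in WT, 112.0 and 143.8 CPM in Tau, and 131.7 and 134.9 CPM in UNC. Both the Tau and the UNC libraries were below both WT libraries, with Tau replicate 1 the lowest. The Tau to WT difference of Srsf5 was -0.27 ± 0.11, just inside the threshold. It was -0.21 without the library labelled WT replicate 1 and -0.10 without Tau replicate 1, and it was no longer past the threshold without either of these, without either UNC library, with the Xist term or with the 2 groups fitted alone. Tra2a had 55.2 and 73.6 CPM in WT, 57.8 and 71.4 CPM in Tau, and 69.1 and 75.0 CPM in UNC. Here the library labelled WT replicate 1 and Tau replicate 1 were the low ones and the groups overlapped in every comparison, with a log2 fold change of 0.00 ± 0.14 for Tau to WT and 0.16 ± 0.14 for UNC to WT. Without the library labelled WT replicate 1 these were -0.20 and -0.03. In the fit with the Xist term the UNC to Tau difference of Tra2a changed from 0.16 to 0.58, a shift that is the difference between the 2 WT mice (0.41). Rbm39 had 246.5 and 260.9 CPM in WT, 232.8 and 254.4 CPM in Tau, and 268.3 and 274.3 CPM in UNC. Both UNC libraries were above the other 4, by log2 fold changes of 0.16 ± 0.08 over Tau and 0.10 ± 0.08 over WT (0.05 without the library labelled WT replicate 1).

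The last 4 genes had unlike patterns. Pnisr, with 185.0 and 202.0 CPM in WT, 142.3 and 183.6 CPM in Tau, and 185.3 and 197.0 CPM in UNC, had its 2 lowest values in Tau and UNC within the range of WT. Its Tau to WT difference of -0.25 ± 0.11 lay just outside the fold threshold, and it was -0.32, past the threshold, without the library labelled WT replicate 1. Ccnl2 had 61.1 and 60.1 CPM in WT, 49.2 and 58.5 CPM in Tau, and 55.8 and 60.8 CPM in UNC, with both Tau libraries below WT and a log2 fold change of -0.17 ± 0.10, also -0.17 without the library labelled WT replicate 1. Ddx5 had 638.3 and 631.7 CPM in WT, 644.6 and 685.7 CPM in Tau, and 662.7 and 697.6 CPM in UNC. Luc7l had 141.5 and 144.4 CPM in WT, 155.7 and 153.8 CPM in Tau, and 162.9 and 159.5 CPM in UNC. These 2 genes went the other way, with both WT libraries lowest, but by only 0.07 ± 0.07 for Ddx5 and 0.11 ± 0.07 for Luc7l between Tau and WT, or 0.07 and 0.10 without the library labelled WT replicate 1. Scaled by library size alone, without TMM factors, these values were -0.0019 for Ddx5 and 0.05 for Luc7l. The UNC to WT differences were -0.21 for Srsf5, -0.02 for Pnisr, -0.05 for Ccnl2, 0.10 for Ddx5 and 0.17 for Luc7l, and without the library labelled WT replicate 1 they were -0.14, -0.08, -0.04, 0.10 and 0.16.

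**Figure D2:**
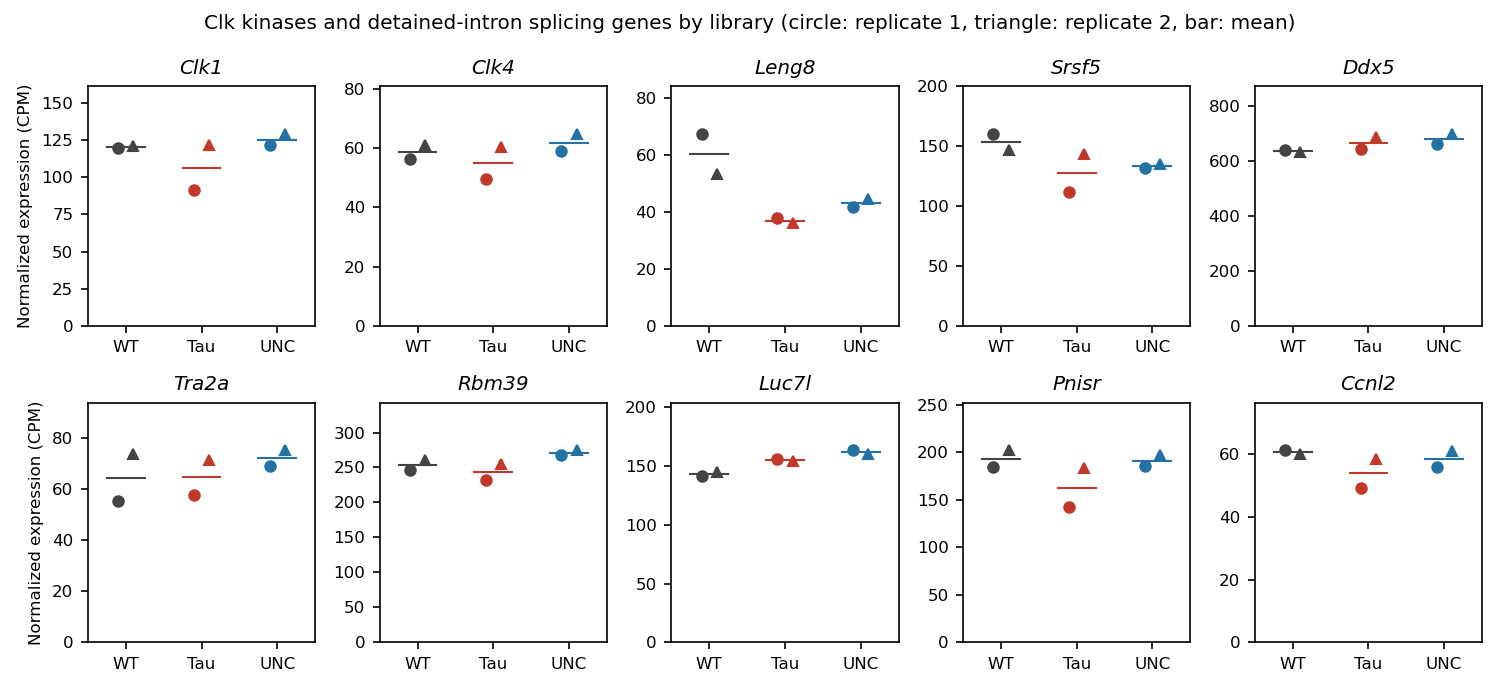
Normalized expression in CPM, from 0, of each of the 10 genes in the WT, Tau and UNC groups, with replicate 1 as a circle, replicate 2 as a triangle and the mean of the 2 mice as a bar. Leng8 is lower in all 4 libraries labelled Tau or UNC (36.0 to 44.8 CPM) than in both libraries labelled WT (53.5 and 67.5 CPM), while for Clk1, Clk4, Srsf5, Pnisr and Ccnl2 the low Tau mean comes largely from Tau replicate 1.

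Set beside all genes, 2 of the 10 members, Leng8 and Srsf5, were below WT in Tau past the threshold (p under 0.05 together with a 1.2-fold difference or more) and none was above. Of all tested genes 6.10% were called lower, 3.72% higher and 9.81% in either direction, and the share with an adjusted p under 0.05, over all genes, was 0.157% for Tau to WT, 0.0196% for UNC to Tau and 0.216% for UNC to WT. No member was past the threshold for UNC to Tau (edgeR, 0 at an unadjusted p under 0.05 with any fold, and 0 called but 1 at that p with DESeq2), where 7.69% of all genes were called, 3.73% higher and 3.95% lower. The paper, in contrast, lists Leng8 among the genes lower in Tau mice and reversed by UNC0642. Without the library labelled WT replicate 1 the 2 members called lower in Tau were Leng8 and Pnisr, beside 4.64% of all genes called lower and 4.38% higher. With scaling by library size alone they were Leng8, Srsf5 and Pnisr, and of all genes 415 were called higher and 1742 lower, against 759 and 1244 with TMM. For UNC to WT it was 1 member, Leng8, which was lower, where 5.69% of all genes were called lower, 3.77% higher and 9.47% in either direction. By library size alone, 900 genes were called higher and 635 lower for UNC to Tau (762 and 807 with TMM), and 536 higher and 1479 lower for UNC to WT (770 and 1162 with TMM). By ranges, Tau was entirely below WT for 4 members (Leng8, Srsf5, Pnisr and Ccnl2), where 21.4% of all genes were so, and entirely above WT for Ddx5 and Luc7l, where 21.9% of all genes were so (43.2% in either direction). UNC was entirely above Tau for 4 members (Leng8, Rbm39, Luc7l and Pnisr), beside 20.4% of all genes, and for no member entirely below (41.3% of all genes did not overlap in either direction). UNC was entirely above WT for 4 members (Clk1, Ddx5, Rbm39 and Luc7l), beside 22.1% of all genes, and entirely below for Leng8 and Srsf5, beside 22.3% (44.4% in either direction).

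The median log2 fold change of the 10 genes was -0.13 for Tau to WT, 0.16 for UNC to Tau and 0.069 for UNC to WT, while the medians of all tested genes were within 0.0123 of 0. For UNC to Tau all 10 values were positive, from 0.032 for Ddx5 to 0.24 for Clk1, and 10125 of the 20409 tested genes were positive. These signs were not stable. Without Tau replicate 1, Srsf5 (-0.11), Ddx5 (-0.01) and Ccnl2 (-0.003) were negative. Ddx5 was also negative without UNC replicate 2 (-0.005), as were Leng8 (-0.105) and Srsf5 (-0.06) with the Xist term. The comparisons of Tau with WT and of UNC with Tau share the Tau libraries, so a Tau library that is low for a gene lowers the first value and raises the second. The medians were -0.18 for Tau to WT and -0.0065 for UNC to WT without the library labelled WT replicate 1. The medians of Tau to WT and UNC to Tau depended on which Tau library was kept. Without Tau replicate 1 these 2 were 0.011 for Tau to WT and 0.036 for UNC to Tau, and without Tau replicate 2 they were -0.27 and 0.25. In the fit without Tau replicate 1, Leng8 was the only member called in Tau to WT, and without Tau replicate 2 the calls were Clk1, Leng8, Srsf5, Pnisr and Ccnl2, with Clk1, Clk4 and Pnisr called higher in UNC than in Tau. For Clk1, Clk4, Tra2a and Rbm39 the Tau to WT value was above 0 without Tau replicate 1 (0.02, 0.05, 0.15 and 0.00). It was below 0 for these genes without Tau replicate 2 (-0.39, -0.24, -0.15 and -0.12).

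**Figure D3:**
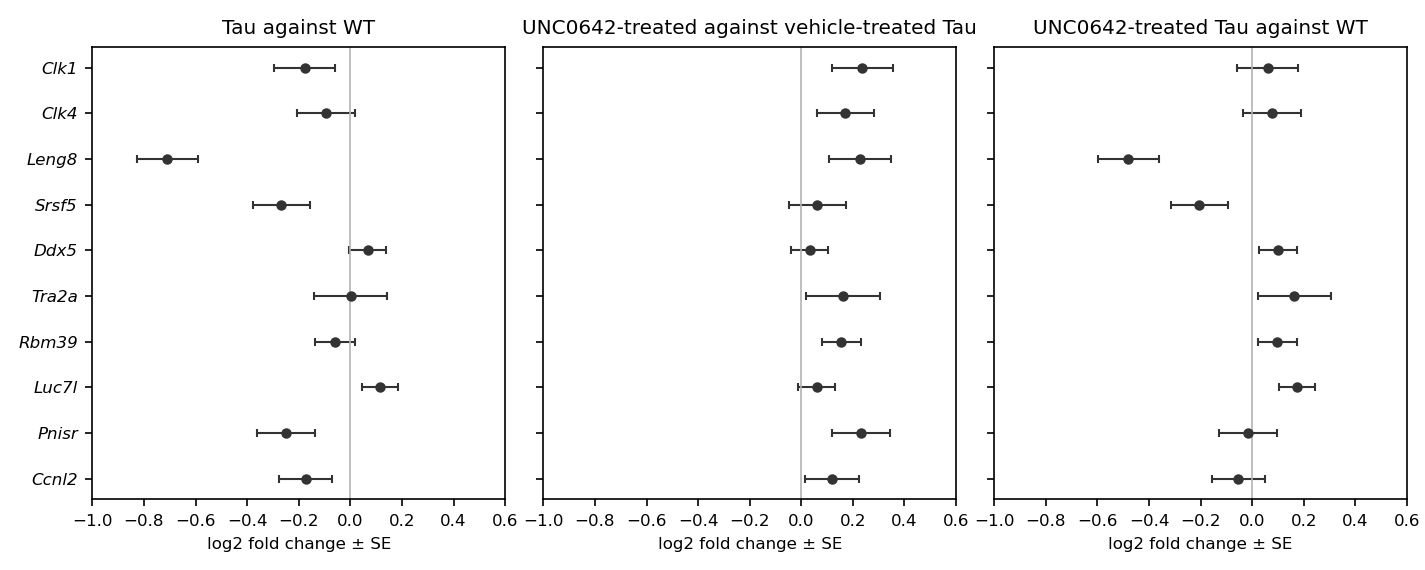
Log2 fold change (point) and its SE (bar) of each gene for Tau to WT, UNC to Tau and UNC to WT, from the fit of all 6 libraries. Leng8 stands apart at -0.71 for Tau to WT and -0.48 for UNC to WT, and all 10 points lie above 0 for UNC to Tau, the largest at 0.24. Without Tau replicate 1, the UNC to Tau values of Srsf5 (-0.11), Ddx5 (-0.01) and Ccnl2 (-0.003) were negative.

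Tau replicate 1 was the lowest of the 6 libraries for 6 of the 10 genes, Clk1, Clk4, Srsf5, Rbm39, Pnisr and Ccnl2, and for 16.1% of all tested genes, for 10.1% of those with a mean of at least 5 CPM and for 22.6% of the other splicing genes. Relative to the WT mean, Tau replicate 1 was at -0.46 (log2) for Srsf5, -0.44 for Pnisr, -0.40 for Clk1, -0.30 for Ccnl2 and -0.24 for Clk4. The same differences in Tau replicate 2 were -0.10, -0.07, 0.02, -0.05 and 0.05. Leng8 was the exception, at -0.66 in Tau replicate 1 and -0.74 in Tau replicate 2. The difference between the 2 Tau mice was larger for Clk1 (0.41 on the log2 scale) than that between the 2 WT mice (0.02) or the 2 UNC mice (0.09). The same held for the other members except Tra2a, Leng8 and Luc7l. For Tra2a, replicate 2 minus replicate 1 was 0.41 in WT and 0.30 in Tau, and for Leng8 -0.33 and -0.07. The median over the 10 genes of the difference from each gene's mean was -0.23 in Tau replicate 1 and between -0.01 and 0.09 in the other libraries.

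Pnisr, Clk1 and Ccnl2 followed the mean of the other 9 members most closely over the 6 libraries, with a Pearson r of 0.982, 0.955 and 0.951, then Clk4 with 0.885, Rbm39 with 0.782 and Srsf5 with 0.716. Tra2a (0.428), Ddx5 (0.202), Leng8 (0.197) and Luc7l (-0.291) did not share that profile. These values describe 6 libraries that share their depth and scaling, and much of each r is the contrast of Tau replicate 1 with the rest. Among 12078 genes with a mean of at least 5 CPM, the 5 most like the mean profile of the members were Gm12940 (r = 0.988), Luc7l3 (0.987), Gm45902 (0.978), Sfxn4 (0.975) and Rnpc3 (0.975). Luc7l3, a relative of Luc7l, had 178.4 and 184.7 CPM in WT, 133.1 and 164.7 CPM in Tau, and 176.7 and 186.3 CPM in UNC. Rnpc3, which encodes a protein of the minor spliceosome, had 31.9 and 33.2 CPM in WT, 20.9 and 28.2 CPM in Tau, and 28.1 and 31.5 CPM in UNC, so in both genes Tau replicate 1 was again the lowest.

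As a sum, the nuclear long noncoding RNAs were also lowest in Tau replicate 1. The 8 RNAs of that list (Malat1, Neat1, Meg3, Miat, Snhg11, Rian, Mirg and Kcnq1ot1) summed to 7161 CPM in Tau replicate 1 and to 9229 to 10435 CPM in the other 5 libraries, and their median difference from the gene mean was -0.42 in Tau replicate 1 and -0.02 to 0.19 elsewhere. Most of the sum was Malat1 (5197 of the 7161 CPM), and Rian went another way, with 572 CPM in Tau replicate 1 and 464 CPM in the library labelled WT replicate 1. Of the 8, 3 were called lower in Tau than in WT (5 without the library labelled WT replicate 1) and none higher, among them Snhg11, with a log2 fold change of -0.61 ± 0.09 (edgeR's quasi-likelihood test, Benjamini-Hochberg adjusted p = 0.041), and Meg3, with -0.49 ± 0.12. In UNC, 4 of the 8 were called higher than in Tau. The cytosolic heat shock genes had their lowest medians in both WT libraries (-0.39 and -0.29), and 3 of 7 were called higher in Tau than in WT, 3 of 7 higher in UNC than in Tau and 5 of 7 higher in UNC than in WT, counts that were equal without the library labelled WT replicate 1, including the co-chaperone Dnajb1, at 0.80 ± 0.09 for UNC to WT (edgeR, adjusted p = 0.0053). The part of nuclear RNA, heat shock, sex or the neuronal, oligodendrocyte, endothelial and microglial content in the members' values was not tested.

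**Figure D4:**
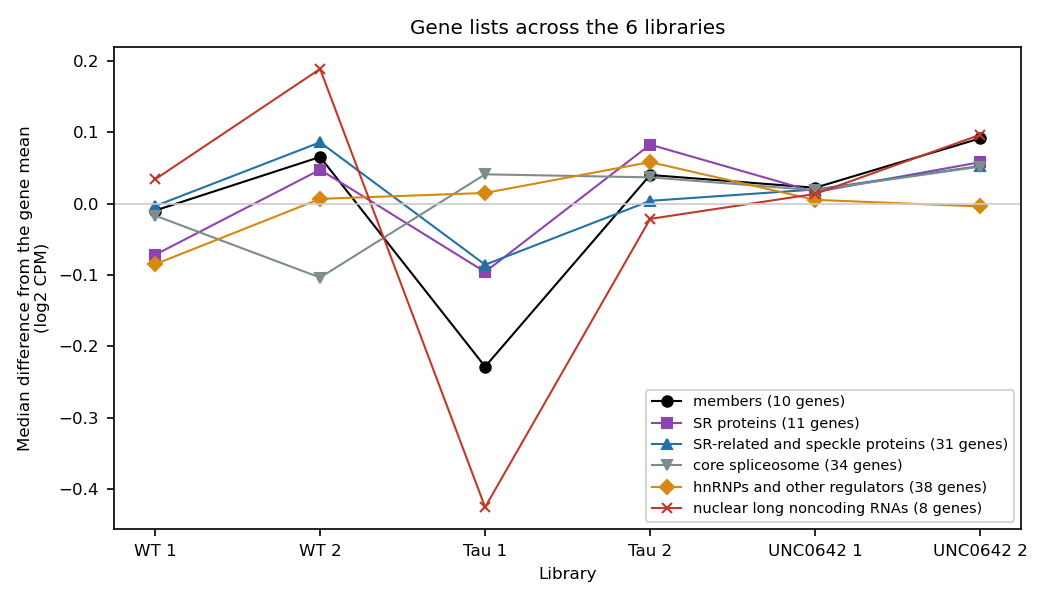
Median difference of the genes of each list from their own mean over the 6 libraries (log2 CPM), with lines joining the libraries only to guide the eye. The members (black) are at -0.23 and the nuclear long noncoding RNAs (red) at -0.42 in Tau replicate 1, while SR proteins, SR-related proteins, the core spliceosome and hnRNPs stay between -0.10 and 0.09 in all libraries. SR proteins and SR-related proteins also have their lowest value in Tau replicate 1, at -0.10 and -0.09.

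The rest of the splicing machinery was described from 7 lists with 138 genes that are no members, of which 137 could be tested. In the comparison of Tau with WT, 9 of the 137 genes were called (6.57%), 3 higher and 6 lower, and 128 did not pass. Without the library labelled WT replicate 1 this became 6 higher and 11 lower, and without Tau replicate 1 it became 13 higher and 5 lower, without WT replicate 2 it became 10 higher and 3 lower, and by library size alone 3 higher and 10 lower. None of the 9 had an adjusted p under 0.05 (edgeR). The median of the 137 was 0.037, against -0.13 for the members. By class, 4 of 31 SR-related and speckle proteins were called, with Rsrp1, a serine- and arginine-rich nuclear protein, at -0.37 ± 0.08, Luc7l3 at -0.29 ± 0.10, Arglu1 at -0.28 ± 0.10 and the RNA-binding splicing regulator Rbm10 at 0.35 ± 0.11. Rsrp1 had 222.7 and 237.4 CPM in WT, 171.2 and 184.8 CPM in Tau, and 164.3 and 168.1 CPM in UNC, so it was low in both Tau and both UNC libraries, and it was called in each of the 15 alternative fits of both comparisons with WT.

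Among the other SR protein kinases, 1 of 11 was called in Tau to WT, the low-expressed Srpk3 at -0.87 ± 0.30, which was not called without the library labelled WT replicate 1, without Tau replicate 2 or with the Xist term. The remaining Clk genes, Clk2 and Clk3, differed by -0.02 and -0.05. None of 11 other SR proteins was called, with values from -0.18 for Srsf11 to 0.19 for Srsf10. In the core spliceosome 1 of 34 genes was called, Snrnp70, the U1 snRNP 70K protein, at -0.36 ± 0.10, and 28 of the 34 were above 0. Of 38 hnRNPs and other regulators, Hnrnpf (0.46 ± 0.14) and Hnrnpa3 (0.37 ± 0.12) were called higher and Tia1 (-0.29 ± 0.12) lower. With 1 library left out, the calls of Snrnp70, Hnrnpa3, Arglu1 and Luc7l3 were lost without Tau replicate 1, those of Hnrnpa3, Arglu1, Luc7l3 and Hnrnpf without WT replicate 2, that of Rbm10 without Tau replicate 2, and that of Tia1 in 4 of the 6 fits. Of 10 factors of nonsense-mediated decay and of the detained-intron genes Ogt and Mat2a, none was called, and Ogt and Mat2a differed by -0.07 and 0.19.

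In the comparison of UNC with Tau, 8 of the 137 genes were called (5.84%), 2 higher and 6 lower, none with an adjusted p under 0.05 (edgeR). Srek1, which encodes an SR-related regulator, was called higher by 0.39 ± 0.09, with 71.6 and 83.9 CPM in Tau and 105.3 and 98.5 CPM in UNC, and Luc7l3 by 0.29 ± 0.10. Hnrnpa3 was called lower at -0.62 ± 0.13, with 62.0 and 55.9 CPM in Tau and 42.5 and 34.5 CPM in UNC. Sf3a2, a subunit of the U2 snRNP (-0.66 ± 0.20), Srrm4, the activator of neuronal microexons (-0.53 ± 0.15), Nova2 (-0.51 ± 0.19) and Nova1 (-0.29 ± 0.12) were also called lower. Srek1 and Hnrnpa3 were called in all 15 alternative fits, and the other 6 genes were not called in the fit with the Xist term, which called 8 genes higher and 1 lower. Without Tau replicate 1 the calls of Luc7l3 and Nova2 were lost, without Tau replicate 2 that of Nova1, without UNC replicate 1 that of Sf3a2, and without UNC replicate 2 those of Srrm4, Luc7l3, Nova2 and Nova1. None of 11 other SR protein kinases and none of 11 other SR proteins passed. Without Tau replicate 2 the count rose to 22, with 13 genes higher and 9 lower.

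In the comparison of UNC with WT, 17 of the 137 genes were called (12.4%), 6 higher and 11 lower. Without the library labelled WT replicate 1 it was 9 higher and 13 lower, without WT replicate 2 and with the Xist term 14 higher and 9 lower, and by library size alone 1 higher and 12 lower, so the balance of directions depended on the WT library and on the scaling. Rsrp1 was called lower at -0.47 ± 0.08 and was the 1 gene of the lists with an adjusted p under 0.05 (edgeR, adjusted p = 0.049). Srrm1, a large SR-related protein of the spliceosome, was at -0.45 ± 0.11, Srrm4 at -0.63 ± 0.15 and Sf3a2 at -0.60 ± 0.20, while Srek1 was higher by 0.29 ± 0.09. The SR protein Srsf7 was higher by 0.28 ± 0.09. Nova2 (-0.83 ± 0.19) and Hnrnpdl (-0.31 ± 0.08) were lower, and Hnrnpf (0.50 ± 0.14), Hnrnpc (0.30 ± 0.07) and Elavl2 (0.30 ± 0.09) were higher. Both Srpk3 (-0.78 ± 0.30) and Dyrk1b (-0.38 ± 0.15), kinases that act on SR proteins or related substrates, were called lower, while Clk2 and Clk3 differed by -0.12 and -0.01. The calls of Srsf7, Srpk3, Dyrk1b and Elavl2 were lost without the library labelled WT replicate 1, those of Srpk3, Elavl2, Sf3a2 and Srek1 without UNC replicate 1, those of Srsf7, Srpk3 and Dyrk1b without UNC replicate 2, and that of Dyrk1b also without WT replicate 2, with DESeq2 and with the Xist term. By library size alone the calls of Srsf7, Srek1, Hnrnpc and Elavl2 were lost.

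**Figure D5:**
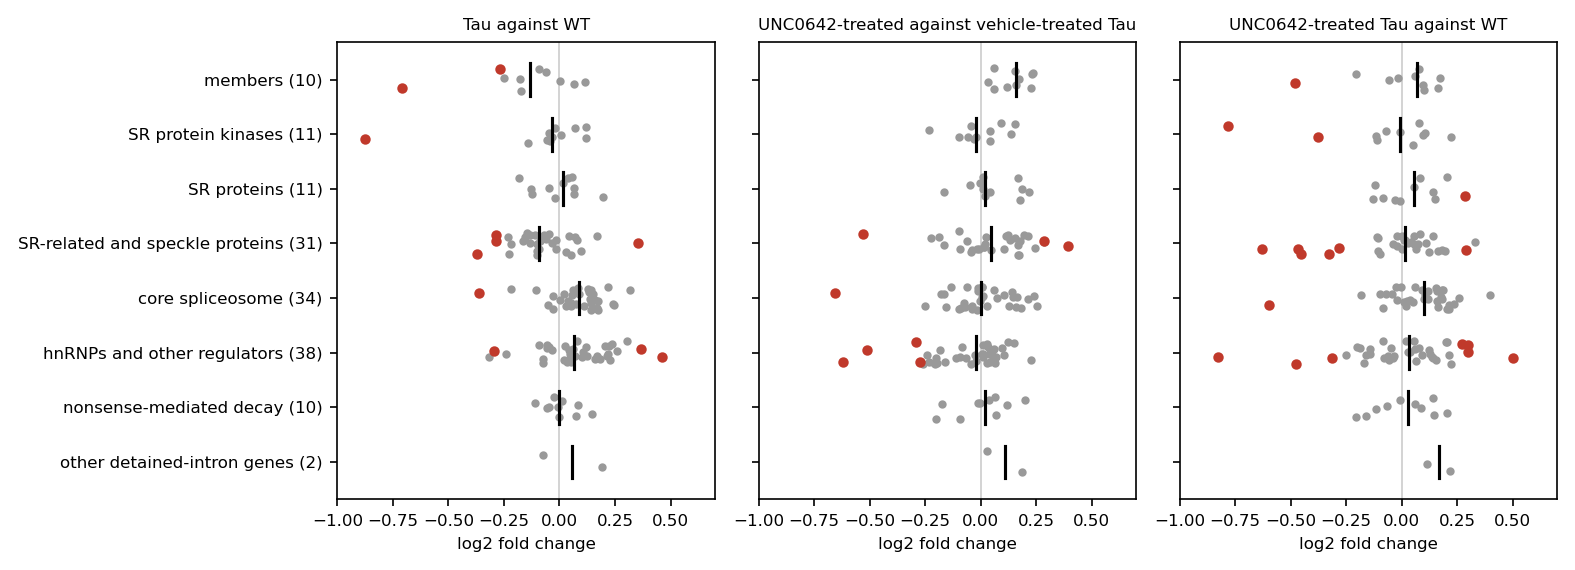
Log2 fold change of every gene of the members and of the 7 lists of splicing genes, in the 3 comparisons, with red points for genes past the threshold (p under 0.05, 1.2-fold or more) and a black bar for the median of the list. The median of the members, which were chosen with these values in view, is -0.13 for Tau to WT and 0.16 for UNC to Tau (0.011 and 0.036 without Tau replicate 1), and most genes of every list are grey.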

How the data were processed

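Strand-specific RNA libraries of PFC tissue, depleted of ribosomal RNA, were sequenced by the study from 6 mice. The authors trimmed reads with Cutadapt, aligned them with TopHat2 (to RefSeq mRNAs as stated, with mm10 named in the submitters' processing notes) and deposited featureCounts counts per gene, not normalized, with totals of 17005664 to 28972176 per library. The counting annotation, its strand setting and the treatment of reads that fit several genes are not given in the sources used here, so an overlapping gene or a near copy can share reads with a member. In 2 files 26 names appeared as calendar dates and were restored by row position.

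Counts were fitted with edgeR 4.0.16 in R 4.3.3 (filterByExpr with a minimum of 10 counts, TMM factors 0.966 to 1.04, quasi-likelihood F test, a mean per group over 6 libraries, 3 residual degrees of freedom). Genes were called at the study's threshold, p under 0.05 and a fold of at least 1.2, and p-values were adjusted by Benjamini-Hochberg over 20409 genes. CPM values carry the TMM scaling, log2 CPM a prior count of 2, errors of fold changes are SEs of the fit, and a floor of 3 counts is 0.104 to 0.176 CPM. On simulated counts of 19915 genes, 100% of 200 genes changed by 2-fold between Tau and WT and 4.57% of unchanged genes were called. The changed genes were drawn from those with a mean above 5 CPM. Smaller changes, such as those of all members, and changes in genes of lower level were not simulated. Alternatives were run with DESeq2 1.42.0 and limma 3.58.1, and tables were made with Python 3.11.15. Gene models came from GENCODE M21, where 53669 of 54429 names were found once.

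The members and gene lists were chosen with earlier results of these data known. Named were all members, from each splicing list up to 3 genes of smallest p per direction among those called, genes of the accompanying lists, Xist and Prnp as checks, and the 5 genes most like the members' profile. Results of some listed genes are not reported here. Replicates were separate mice, and numbers shared between groups did not pair them.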

Additional observations from a re-analysis of the deposited data

How the results depend on the processing

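The cause of the shifts given here was not tested. With the DESeq2 Wald test 1322 genes were called for Tau to WT instead of 2003, and with only the 2 compared groups fitted 1 member (Leng8) was called. A term for the Xist pattern gave 17 splicing genes for Tau to WT, 1 member (Tra2a) for UNC to Tau and 2 members (Leng8 and Tra2a) for UNC to WT. By adjusted p under 0.05, edgeR called 32, 4 and 44 of all genes for Tau to WT, UNC to Tau and UNC to WT, 0, 0 and 1 of the splicing genes, and 0 members in each comparison, against 3, 0 and 2 members at an unadjusted p under 0.05. With a fold change of at least 1.5, it called 1130, 855 and 784 of all genes, 1, 2 and 4 of the splicing genes, 1 member for Tau to WT and 0 members for UNC to WT.

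With 1 library left out, the splicing genes called for Tau to WT ranged from 8 (without UNC replicate 1 or 2) to 18 (without Tau replicate 1), with 17 without the library labelled WT replicate 1, the members from 1 (without Tau replicate 1, UNC replicate 1 or UNC replicate 2) to 5 (without Tau replicate 2), and the members' median from -0.27 to 0.011. For UNC to Tau they ranged from 3 (without UNC replicate 2) to 22 (without Tau replicate 2), with 13 without UNC replicate 1, the members from 0 to 3, and the median from 0.036 to 0.25. For UNC to WT they ranged from 11 (without UNC replicate 2) to 23 (without WT replicate 2), the members from 1 to 2 (without WT replicate 2), and the median from -0.0065 to 0.11. Same-numbered libraries did not deviate together (correlations -0.034, -0.021 and -0.0034), and a fit with a replicate block gave a median of -0.14 for Tau to WT and moved no count by over 1.5 times (1792, 1404 and 1755 of all genes). Of 450 single fold changes under the alternatives 410 stayed within 1 SD, the SD of each gene between replicates of these same groups. That SD comes from the same mice, and some fits leave out a library outside the comparison, so this count does not measure robustness. A change of sign was counted only for the values called in the main fit, Leng8 and Srsf5 for Tau to WT and Leng8 for UNC to WT. None of these changed sign, while several values that were not called did, as given above.

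With 2 mice a group and 1 count per gene, differences of a few percent and the spliced share of these transcripts were not detectable.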

Other observations

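The cold-inducible RNA-binding protein gene Cirbp, itself a gene of temperature response, had 65.7 CPM in the library labelled WT replicate 1, 44.1 CPM in WT replicate 2, 39.9 and 41.9 CPM in Tau and 40.5 and 42.8 CPM in UNC. It thus stood apart in the library labelled WT replicate 1, as did Rbm3 with 25.6 CPM against 15.6 to 20.4 CPM elsewhere, and this was also the library with the highest Leng8 level (67.5 CPM). Snhg11 was at 679.8 and 678.5 CPM in WT, 411.7 and 478.4 CPM in Tau and 545.8 and 583.9 CPM in UNC, so its 3 groups did not overlap and had the same order as those of Leng8.

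Several counts may include reads of a neighbour. The overlaps given are those of whole gene spans, introns included, and overlap of exons was not measured. Tra2a shares 1612 bases with Gm43980 on the opposite strand (91 to 238 counts), Luc7l shares 7350 bases with the antisense gene AC126438.2, which was not analysed here, and 1048 bases with the processed pseudogene Gm16580 (87 to 187 counts), and Clk4 overlaps BC049762 (0 to 4 counts) and Gm25082 (7 to 23 counts).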
